A study of Caenorhabditis elegans with 4 samples.

Results

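The nuclear hormone receptors described here are the protein-coding genes of Caenorhabditis elegans whose symbol is nhr- followed by a number. Members were found by symbol in the raw count tables, which gave 269 receptors among 46748 genes, of which 19641 were annotated as protein-coding. Poly(A) RNA was sequenced from whole larvae at the L3 stage, grown at 20 °C, in 4 libraries. The wild type libraries of the N2 strain are called rWQS019 and rWQS042, and the libraries of the met-2 set-25 double mutant are called rWQS029 and rWQS045. The study's methods give the double mutant as strain GW638, with the alleles met-2(n4256) and set-25(n5021), and the mutations are carried by all cells of the animal. Both genes encode enzymes that methylate lysine 9 of histone H3, a modification found on silent chromatin. The comparison asks which receptors differ in RNA level when these enzymes are missing. A whole larva mixes all tissues, so fewer cells of a type and less RNA per cell cannot be told apart in any value given here.

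Nuclear hormone receptors are transcription factors with a zinc finger domain that binds DNA and a second domain that can bind a small lipophilic ligand such as a steroid or a fatty acid. Binding of the ligand changes which coactivators and corepressors the receptor recruits to its target genes. C. elegans has a much larger family than insects or mammals, and most of its members descend from an ancestor related to mammalian HNF4. A small set has clear orthologs in insects and mammals and acts in molting, timing and cell fate, and another well studied set, in the intestine above all, adjusts fat, diet and detoxification genes. Most of the others have no established role.

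The deposited counts summed to 22849521 in rWQS019, 56879896 in rWQS042, 36581352 in rWQS029 and 48636767 in rWQS045. edgeR's quasi-likelihood test with Benjamini-Hochberg adjustment, the main test, left 0 of 15978 genes below the threshold of 0.05 after adjustment (0% of genes), with 1008 genes higher and 633 lower at an unadjusted p under 0.05. DESeq2, which the study's methods name, called 412 genes higher in the mutant and 136 lower. "Rose" and "fell" are used below only for genes called by DESeq2. The targeted gene met-2 was at 61.95 and 55.8 CPM (counts per 1e6 counts of the library, TMM-scaled) in wild type and at 31.8 and 35.3 CPM in the mutant, with an edgeR adjusted p of 0.335. The other targeted gene, set-25, was at 11.4 and 17.5 CPM in wild type and at 11.5 and 11.6 CPM in the mutant, and its exons overlap unc-64 on the opposite strand, whose reads could be counted with it, since no source used here states that strand was kept. The stretch of each gene that the mutation removes was not used here, so counts over the whole gene are no check of the labels. Among 25 germline markers, 24 were higher in both mutant libraries than in both wild type libraries, beside 22.1% of all genes tested, and gld-2 was lower in both. The 25 summed to 878 and 919 CPM in wild type against 2199 and 4264 CPM in the mutant. Among 25 neuron markers, 19 were lower in both mutant libraries than in both wild type libraries, beside 21.1% of all genes tested, and none was higher. Their sums were 1923 and 1606 CPM in wild type against 1370 and 1155 CPM in the mutant. No germline or neuron marker was at 0 in all libraries, and the part of these marker changes in the receptor results was not tested.

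Most receptors were expressed at low or moderate levels in these larvae. Of the 269 receptors, 227 had a mean of at least 0.1 CPM over the 4 libraries, 183 at least 1 CPM, 84 at least 10 CPM and 5 at least 100 CPM. Per kb of merged exons, the median level was 2.98 CPM per kb over the receptors and 4.61 CPM per kb over all protein-coding genes, and the upper quartiles were 7.57 and 20.3 CPM per kb. The receptors with the highest levels per length carried a large part of the total: the first 10 took 34% of all receptor CPM. nhr-114, which activates methionine cycle genes and protects the germline from dietary stress, was first at 125 CPM per kb, with the mutant libraries raising its mean. nhr-68, an activator of the propionate shunt, was next at 67.7 CPM per kb, and nhr-8, a relative of DAF-12 that acts in cholesterol balance and toxin resistance, followed at 58.5 CPM per kb. nhr-49, the main regulator of fat desaturation and of the response to starvation, stood at 55.3 CPM per kb and nhr-31, which controls vacuolar ATPase genes in the excretory cell, at 47.8 CPM per kb. Neighbours in this order did not separate by library: nhr-68 spanned 84.6 to 98.1 CPM over the 4 libraries, while nhr-8 spanned 44.4 to 212 CPM. nhr-97 and nhr-46, for which no role is listed here, had levels of 40.7 and 29.1 CPM per kb. The muscle receptor nhr-40 stood at 29.2 CPM per kb, nhr-105, with no role listed, at 25 CPM per kb and nhr-23, the ROR ortholog that drives the molts, at 24.8 CPM per kb.

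**Figure D1:**
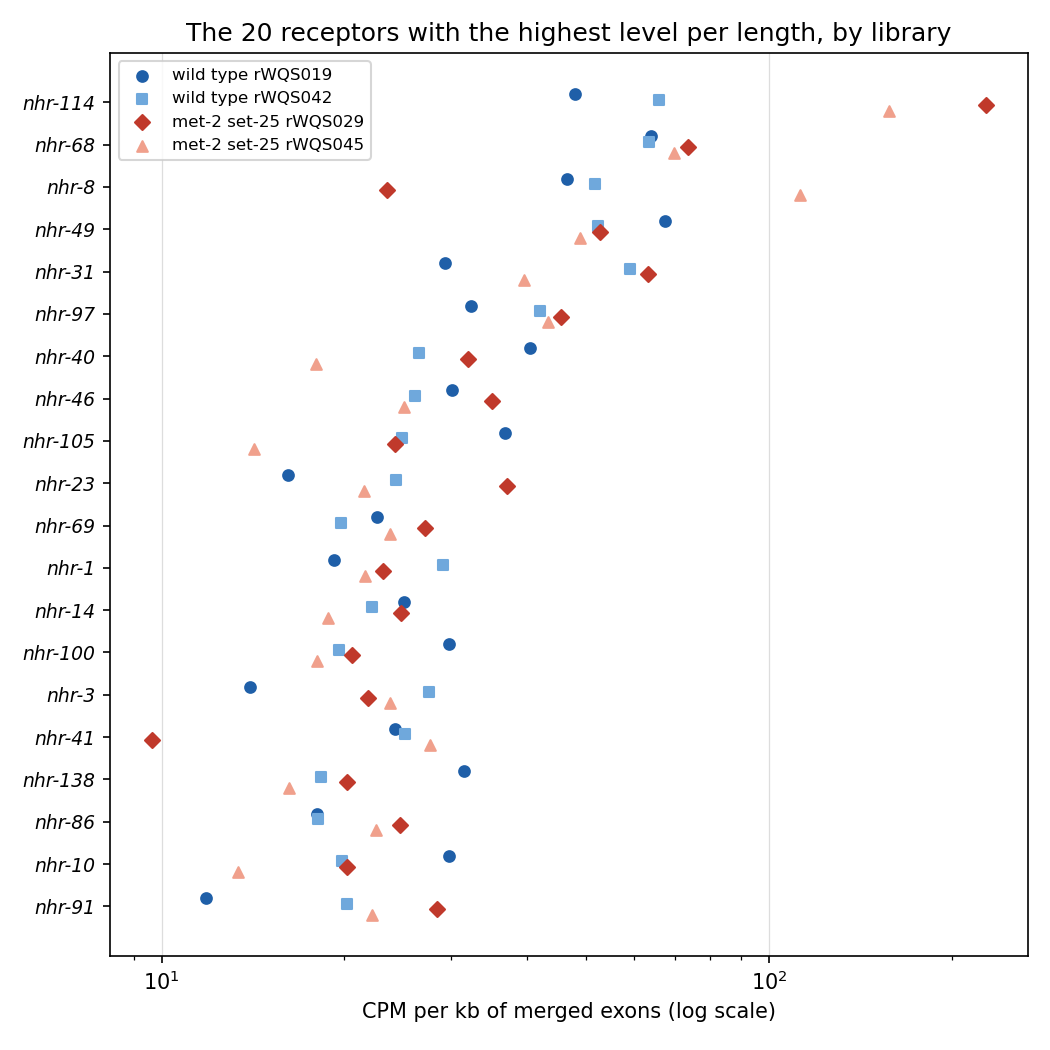
Levels of the 20 receptors with the highest mean per length, in CPM per kb of merged exons on a log axis, with 1 symbol per library and receptors ordered by their mean over the 4 libraries. Of these receptors nhr-114 has its mutant symbols farthest to the right of wild type, and nhr-8 and nhr-41 have mutant symbols far apart, on either side of wild type.

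The median receptor was lower in the mutant than in wild type, by less than the gap between the mutant libraries. edgeR's filter on low counts kept 216 of the 269 receptors, of which 192 passed it in both libraries of both genotypes. The median log2 fold change of the tested receptors, mutant over wild type, was -0.23, with quartiles of -0.53 and 0.12, beside a median of 0.02 and quartiles of -0.34 and 0.37 over all genes tested. Of the 216, 145 had a log2 fold change below 0, which is 67.1% beside 48.4% of all genes tested. In 71 receptors both mutant libraries were lower than both wild type libraries, which is 32.9% beside 21.1% of all genes, and in 17 both were higher, which is 7.87% beside 22.1%. The remaining 128 receptors overlapped between the genotypes. Receptors that pass the filter through 1 genotype alone had to differ, and among the 192 that passed it in both libraries of both genotypes, 132 were below 0 (68.8% beside 48.04% of all such genes), 62 were lower without overlap (32.3% beside 20.9%) and 17 were higher without overlap (8.85% beside 21.9%). Libraries of the same genotype were also apart: the median log2 difference of the tested receptors was -0.29 between rWQS045 and rWQS029, beside 0.01 for all genes, and -0.12 between rWQS042 and rWQS019, beside -0.0017 for all genes. Over all 269 receptors, filtered or not, the mean was lower in the mutant for 163 and higher for 101, and 5 were at 0 in every library. These counts describe the 4 libraries and were given no test of their own, since the members share the libraries.

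The shift was not even over levels of expression. Receptors with a mean between 1 and 5 CPM had a median log2 fold change of -0.39, beside -0.13 for all protein-coding genes of that level, and 50 of these 62 were below 0. Between 5 and 20 CPM the median was -0.22 for 82 receptors, beside 0.03. At 20 CPM and above it was 0.01 for 39 receptors, beside 0.06, with 19 below 0 and 20 above. The level of all receptors summed showed no such shift, at 3035 and 3007 CPM in wild type and 3330 and 2855 CPM in the mutant, and without nhr-114 at 2963 and 2907 CPM against 2984 and 2615 CPM. The median moved with the library left out, from -0.43 without rWQS029 to -0.13 without rWQS045, and the count of receptors below 0 from 169 to 124.

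**Figure D2:**
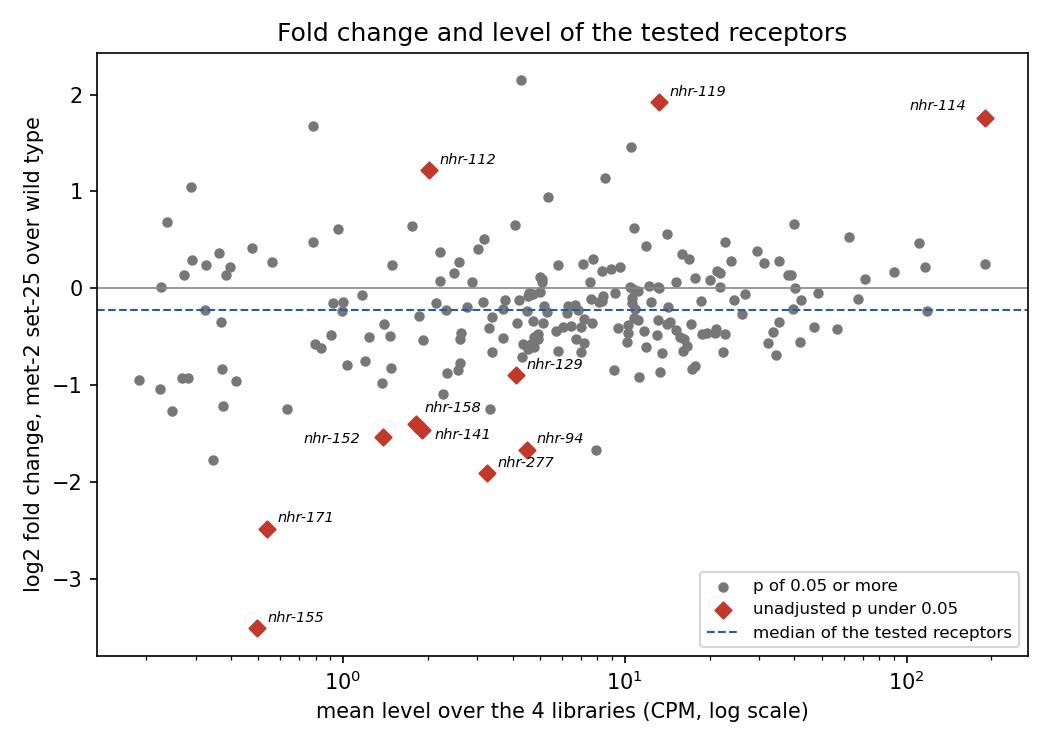
log2 fold change of each tested receptor, met-2 set-25 over wild type, against its mean level in CPM on a log axis, with 1 point per receptor, diamonds for an unadjusted edgeR p under 0.05 and a dashed line at the median of -0.23. The lower diamonds lie at means under 5 CPM, and nhr-114 stands alone at the upper right.

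No receptor passed edgeR after adjustment, where the smallest p was 0.154. With an unadjusted p under 0.05 there were 3 receptors higher and 8 lower in the mutant, of 216, where 6.31% of all genes were higher and 3.96% lower. Of the 192 receptors past the filter in both genotypes, 3 were higher and 6 lower, and the lower receptors outside that set were nhr-171 and nhr-155. Both counts depended on which library was left out. DESeq2 called 1 receptor higher and 2 lower of 220, beside 2.49% and 0.821% of all genes. The receptor that rose was nhr-114. Those that fell were nhr-277 and nhr-94, for neither of which a role is listed here.

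nhr-114 was at 72.9 CPM in rWQS019 and 100.02 CPM in rWQS042, the wild type libraries, and at 346 and 239 CPM in the mutant libraries rWQS029 and rWQS045. Every mutant library lay above every wild type library, and the means were 86.5 ± 19.2 and 293 ± 75.2 CPM (SD, n = 2), a fold of 3.38. The log2 fold change was 1.76 ± 0.30 (SE), and the adjusted p from edgeR was 0.154 and that from DESeq2 was 0.00134. The gene lies on an arm of chromosome V (V 4187202 to 4190008 in WBcel235) and has 1521 bp of merged exons. The DESeq2 call was lost when a wild type library was left out, with an adjusted p of 0.743 without rWQS019 and 0.113 without rWQS042, and was kept without rWQS029 (0.00327) and without rWQS045 (3.15e-05). The log2 fold change lay between 1.496 and 2.04 in these fits.

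The genes that NHR-114 is known to act with, those of the methionine cycle and of phosphatidylcholine synthesis from it, were mostly above 0 as well. Of 13 such genes 12 had a log2 fold change above 0, with a list median of 0.53. Both mutant libraries were above both wild type libraries in 7 and below in none, beside 22.1% and 21.1% of all genes. None passed edgeR or DESeq2 after adjustment, and 4 had an unadjusted edgeR p under 0.05, all higher, beside 6.31% of all genes. pmt-2, a methyltransferase of phosphatidylcholine synthesis, was at 421 and 372 CPM in wild type and at 718 and 1026 CPM in the mutant. ahcy-1, which breaks down S-adenosylhomocysteine, was at 2483 and 2413 CPM in wild type and at 5051 and 4141 CPM in the mutant. The median log2 difference of the list between rWQS045 and rWQS029 was 0.59. By that median the mutant libraries were as far apart as the genotypes and in the order opposite to nhr-114, which was higher in rWQS029. Single genes differed: ahcy-1, pmt-1 and cbl-1 were higher in rWQS029, as nhr-114 was, and the others were higher in rWQS045. The germline markers given above were also higher in the mutant libraries, and their part in these values was not tested.

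nhr-277 was at 4.61 and 5.60 CPM in wild type and at 1.27 and 1.46 CPM in the mutant. The groups did not overlap, with means of 5.11 ± 0.70 and 1.36 ± 0.13 CPM (SD, n = 2), a level 3.75-fold higher in wild type. The log2 fold change was -1.91 ± 0.36 (SE), and the adjusted p from edgeR was 0.190 and that from DESeq2 was 0.00259. The gene lies on an arm of chromosome IV (IV 2742994 to 2747485). Its DESeq2 adjusted p was 0.535 without rWQS019 and 0.776 without rWQS042, and 0.0441 and 0.0267 without rWQS029 and rWQS045.

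nhr-94 was at 6.52 and 7.11 CPM in wild type and at 2.05 and 2.24 CPM in the mutant. The libraries of each genotype lay close together, and the means of 6.82 ± 0.42 and 2.15 ± 0.13 CPM (SD, n = 2) differed 3.17-fold. The log2 fold change was -1.67 ± 0.33 (SE), and the adjusted p from edgeR was 0.193 and that from DESeq2 was 0.00413. Leaving out rWQS019 gave a DESeq2 adjusted p of 0.833 and leaving out rWQS042 gave 0.781, so that this call also needed both wild type libraries. It held without rWQS029 (0.0494) and without rWQS045 (0.0369). The gene lies in the centre of chromosome V (V 7684052 to 7686335), on the minus strand, and its neighbour nhr-152 begins 14 bp further on (V 7686350 to 7688228) on the plus strand. nhr-152 was at 2.09 and 2.03 CPM in wild type and at 0.608 and 0.807 CPM in the mutant, for a log2 fold change of -1.53 with an unadjusted edgeR p of 0.0128, and overlaps C12D5.9 on the opposite strand. The annotated spans of nhr-94 and nhr-152 do not overlap, and both lay lower in both mutant libraries.

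The other receptors with an unadjusted edgeR p under 0.05 were lower in the mutant at low levels, apart from nhr-119 and nhr-112. nhr-141 was at 2.78 and 2.84 CPM in wild type and at 1.09 and 0.941 CPM in the mutant. nhr-158 was at 2.35 and 2.91 CPM in wild type and at 0.938 and 1.05 CPM in the mutant. nhr-171 had 29 and 33 reads in wild type and 8 and 5 in the mutant, and was tested only because its wild type libraries passed the filter. In these receptors all mutant libraries lay below all wild type libraries, and none has a role listed here. nhr-155 and nhr-129 were under the same p and are named after their values were seen. nhr-155 had 6 and 89 reads in wild type and 2 and 5 in the mutant, so that its fold change rests on rWQS042 and it too passed the filter through wild type alone, and nhr-129 was at 5.13 and 5.60 CPM in wild type and at 2.53 and 3.23 CPM in the mutant. In the other direction, nhr-119 was at 2.17 and 8.79 CPM in wild type and at 18.3 and 23.7 CPM in the mutant, for a log2 fold change of 1.92 with an unadjusted p of 0.0385. nhr-112 was at 0.913 and 1.49 CPM in wild type and at 3.24 and 2.47 CPM in the mutant, with a log2 fold change of 1.22. The mutant libraries of nhr-119 and nhr-112 lay above those of wild type, and neither passed edgeR or DESeq2 after adjustment.

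**Figure D3:**
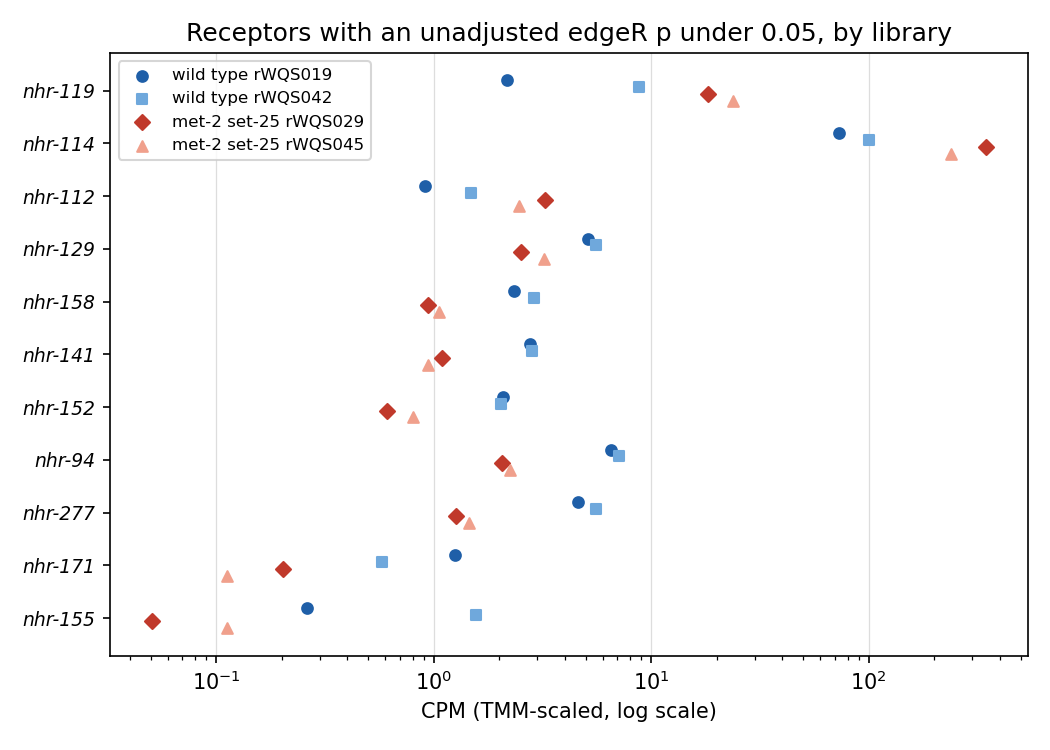
Levels in CPM, on a log axis, of the 11 receptors with an unadjusted edgeR p under 0.05, with 1 symbol per library and receptors ordered by log2 fold change. The 3 upper receptors have both mutant symbols to the right of wild type, and the 8 below them have both to the left.

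Receptors with clear orthologs in insects and mammals were well expressed, and none was called. The 9 members had a median level of 39.4 CPM and a median log2 fold change of -0.12, with 5 below 0 and 4 above, and none was under an unadjusted p of 0.05. nhr-25, the FTZ-F1 ortholog of epidermis and molting, was at 41.9 and 42.7 CPM in wild type and at 31.8 and 41.3 CPM in the mutant. nhr-23 was at 40.9 and 61.4 CPM in wild type and at 93.6 and 54.4 CPM in the mutant. The genotypes overlapped in nhr-23, and in nhr-25 both mutant libraries lay below wild type by little. nhr-85, the E75 ortholog that acts in developmental timing, was at 21.5 and 29.4 CPM in wild type and at 31.3 and 15.4 CPM in the mutant. nhr-91, the GCNF ortholog, was at 22.9 and 39.1 CPM in wild type and at 55.1 and 43.0 CPM in the mutant, with an unadjusted p of 0.114, and its exons overlap glb-28. nhr-67, the Tailless ortholog needed in the anchor cell and in neurons, was at 6.09 and 5.38 CPM in wild type and at 3.83 and 3.72 CPM in the mutant, with an unadjusted p of 0.117. Thus nhr-91 was the member with both mutant libraries above wild type, and nhr-25 and nhr-67 those with both below. nhr-48, a relative of DAF-12, spanned 33.5 to 47.9 CPM, and nhr-6, the NR4A ortholog of the spermatheca, spanned 6.18 to 20.96 CPM, both with overlapping genotypes.

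Molting genes, which nhr-23 and nhr-25 act on, differed more between the mutant libraries than between genotypes. Of 22 such genes 16 had a log2 fold change above 0, with a list median of 0.55. In both mutant libraries 0 were higher and 4 lower than in both wild type libraries, beside 22.1% and 21.1% of all genes. The median log2 difference of these genes between rWQS045 and rWQS029 was 1.22. mlt-10, a cuticle protein gene of the molt, was at 293 and 262 CPM in wild type, at 79.0 CPM in rWQS029 and at 754 CPM in rWQS045. Transcripts of molting genes are known to cycle within each larval stage, and the part of this difference in the receptor values was not tested.

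Receptors of fat and starvation showed no call, while some of their target genes did. nhr-49 was at 144 and 112 CPM in wild type and at 112.5 and 104.2 CPM in the mutant, for a log2 fold change of -0.24. Its partner nhr-80 was at 21.1 and 18.6 CPM in wild type and at 19.5 and 25.5 CPM in the mutant. The partners nhr-13 and nhr-66 spanned 10.3 to 15.96 CPM and 42.4 to 52.5 CPM. The 7 receptors of the group had a median log2 fold change of -0.05, with 4 below 0 and 3 above. The members with both mutant libraries above wild type were nhr-62, needed for long life under dietary restriction, at 4.61 and 5.99 against 16.96 and 6.41 CPM, and nhr-76, which acts in fat loss under serotonin, at 4.04 and 3.26 against 4.84 and 9.19 CPM. Neither had an unadjusted p under 0.05.

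Of 18 tested genes on the list of fat metabolism targets, 8 were above 0 and 10 below, with a median of -0.17. At an unadjusted edgeR p under 0.05, 4 were higher and 2 lower, beside 6.31% and 3.96% of all genes. The lower genes were ech-1.1, at 3.74 and 10.6 CPM in wild type and 1.90 and 1.86 CPM in the mutant, and icl-1. icl-1 was at 4135 and 840 CPM in wild type and at 700 and 536 CPM in the mutant. Among the higher genes fat-6 was uncalled, at 287 and 286 CPM in wild type and at 634 and 479 CPM in the mutant. DESeq2 called 3, all higher, beside 2.49% of all genes called higher. fat-7, a stearoyl-CoA desaturase that NHR-49 and NHR-80 activate, was at 4.70 and 5.53 CPM in wild type and at 33.4 and 29.3 CPM in the mutant. It rose, with a log2 fold change of 2.61, an adjusted p of 0.0841 by edgeR and of 3.86e-10 by DESeq2, and the DESeq2 call held whichever library was left out, with adjusted p values up to 0.0329. fat-5, a palmitoyl-CoA desaturase, was at 1.26 and 1.09 CPM in wild type, at 111 CPM in rWQS029 and at 4.41 CPM in rWQS045. The mutant libraries of fat-5 thus differed 25.1-fold, and its DESeq2 adjusted p was 0.0699 without rWQS029. hacd-1, a dehydrogenase of fatty acid breakdown, was at 5.52 and 18.2 CPM in wild type and at 141.5 and 35.7 CPM in the mutant, and its call was lost without rWQS019 (0.362) and without rWQS029 (0.0700).

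Among the receptors of diet and metabolites, nhr-114 stood apart from the others. nhr-68 was at 85.1 and 84.6 CPM in wild type and at 98.1 and 93.0 CPM in the mutant, for a log2 fold change of 0.17. nhr-10, its partner in activating the propionate shunt, was at 45.9 and 30.7 CPM in wild type and at 31.2 and 20.6 CPM in the mutant, for a log2 fold change of -0.56. The mutant libraries were higher for nhr-68 by little and overlapped wild type for nhr-10. The list held genes of the shunt, on which nhr-68 and nhr-10 act, and genes of the vitamin B12 route. It was below 0 in 9 of 9, beside 48.4% of all genes, with a median of -0.18 and pccb-1 at -0.0016. None was under an unadjusted edgeR p of 0.05, and 5 had both mutant libraries below wild type, beside 21.1% of all genes. These were the shunt genes acdh-1, hach-1, hphd-1, alh-8 and ech-6. The B12 route genes pcca-1, pccb-1, mce-1 and mmcm-1 overlapped between genotypes. acdh-1, the first enzyme of the shunt, was at 2909 and 3235 CPM in wild type and at 2363 and 2839 CPM in the mutant. nhr-86, an intestinal receptor that senses a bacterial toxin, was at 25.5 and 25.6 CPM in wild type and at 34.9 and 31.8 CPM in the mutant, with an unadjusted p of 0.153 and exons that overlap comt-3. nhr-14, which acts in iron uptake, was at 46.4 and 41.2 CPM in wild type and at 45.9 and 34.9 CPM in the mutant.

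Several cytochrome P450 genes of detoxification fell, while the receptors listed here for xenobiotics and the environment were uncalled. nhr-176, which binds the drug thiabendazole and activates cyp-35D1, was at 6.0 and 4.71 CPM in wild type and at 4.44 and 2.11 CPM in the mutant, for a log2 fold change of -0.71. Its target cyp-35D1, a cytochrome P450, was at 3.52 and 3.94 CPM in wild type and at 0.988 and 0.740 CPM in the mutant. cyp-35D1 fell by a log2 fold change of 2.11, with a DESeq2 adjusted p of 0.00222 that passed 0.05 only without rWQS029 (0.01597) among the fits without 1 library. Of 17 tested genes on the xenobiotic list, 13 were below 0, with a median of -1.16. At an unadjusted edgeR p under 0.05, 8 were lower and none higher, beside 3.96% and 6.31% of all genes. DESeq2 called 5, all lower, beside 0.821% of all genes called lower. cyp-35A3 and cyp-35A2, close relatives whose reads may be split between copies, were among them, and cyp-35A2 was at 77.1 and 125 CPM in wild type and at 25.7 and 27.5 CPM in the mutant. The call of cyp-35A3 held whichever library was left out, with adjusted p values up to 0.0380, and that of cyp-35A2 was lost without rWQS019 (0.0684) and without rWQS042 (0.467). The calls of cyp-35A4 and cyp-14A1 were lost without rWQS042 (0.9997 and 0.993) and without rWQS045 (0.121 and 0.161), and that of cyp-14A1 also without rWQS019 (0.730). The whole list summed to 682 and 830 CPM in wild type and 799 and 367 CPM in the mutant. Its summed level thus overlapped between genotypes. Much of the sum in rWQS029 came from pgp-14, at 222 and 167 CPM in wild type, 397 CPM in rWQS029 and 23.8 CPM in rWQS045. No gene of the list passed edgeR after adjustment.

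Ligand synthesis, coregulators and the nuclear receptors with other names were uncalled. The 8 tested genes of dafachronic acid synthesis and sterol supply, which provide the ligand of DAF-12, had a median log2 fold change of 0.33, with none under an unadjusted p of 0.05. daf-9, the cytochrome P450 of the last step, was at 22.3 and 21.7 CPM in wild type and at 31.1 and 19.4 CPM in the mutant. The receptor daf-12, which these acids bind, was at 133 and 178 CPM in wild type and at 173 and 74.1 CPM in the mutant. Both genes overlapped between genotypes. Of the 5 receptors with other names, daf-12 included, 1 was above 0 and 4 below, with none under an unadjusted edgeR p of 0.05. Without overlap 1 was higher, sex-1, and 2 were lower, unc-55 and fax-1, beside 22.1% and 21.1% of all genes. Of 20 coregulators, 9 were above 0 and 11 below, with a median of -0.04 and 1 under an unadjusted p of 0.05. mdt-15, the Mediator subunit that works with NHR-49, was at 212 and 215 CPM in wild type and at 237 and 177 CPM in the mutant.

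**Figure D4:**
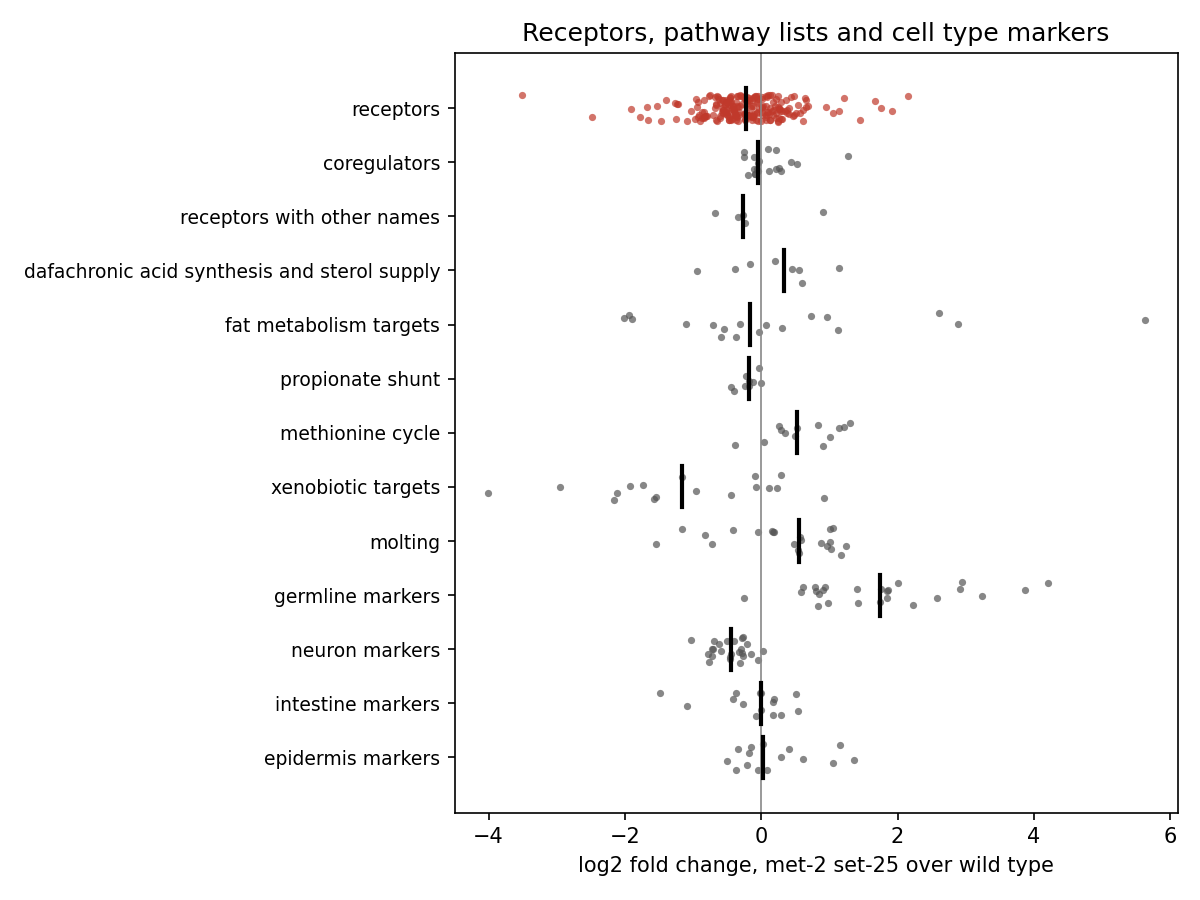
log2 fold change, met-2 set-25 over wild type, of each tested gene of the receptors, of the pathway lists and of the cell type marker lists, with 1 point per gene and a black bar at the median. The receptors centre on -0.23, the xenobiotic targets on -1.16, the methionine cycle on 0.53 and the germline markers on 1.74.

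The 3 tested receptors of tissue development and nhr-57 varied between libraries more than between genotypes. nhr-31 was at 71.5 and 144 CPM in wild type and at 154 and 96.3 CPM in the mutant. nhr-40 was at 78.2 and 51.5 CPM in wild type and at 61.8 and 34.8 CPM in the mutant, and shares exon positions with T03G6.7. The seam cell receptor nhr-60 spanned 1.82 to 2.71 CPM. nhr-57, a target of the hypoxia factor HIF-1, was at 14.2 and 6.02 CPM in wild type and at 21.9 and 5.45 CPM in the mutant, and overlaps lgc-1 on the same strand. All of these overlapped between genotypes. nhr-2, which acts in the early embryo, was at 0.177 CPM or less in each library and was not tested.

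Some receptors differed widely between the mutant libraries. With 0.1 CPM added to each level, 40 of 216 receptors were more than 2-fold apart between rWQS045 and rWQS029, which is 18.5% beside 20.7% of all genes, and 30 were so between rWQS042 and rWQS019, which is 13.9% beside 8.56%. nhr-8 was at 88.0 and 97.6 CPM in wild type, at 44.4 CPM in rWQS029 and at 212 CPM in rWQS045. Wild type lay between the mutant libraries, which differed 4.79-fold, and the log2 fold change turned from -1.07 without rWQS045 to 1.19 without rWQS029. nhr-8 overlaps F33D4.6 on the opposite strand. nhr-41, the ortholog of insect DHR78, was at 52.6 and 54.6 CPM in wild type, at 20.9 CPM in rWQS029 and at 60.1 CPM in rWQS045. Here rWQS029 alone was low, and the mutant libraries differed 2.87-fold. The next 4 were chosen after their values were seen, for their spread. nhr-74 was at 2.52 and 8.60 CPM in wild type, at 3.14 CPM in rWQS029 and at 27.7 CPM in rWQS045. nhr-53 was at 15.04 and 9.002 CPM in wild type and at 6.08 and 1.46 CPM in the mutant, so its mutant libraries were both lower but unequal. nhr-265 had 4 and 162 reads in wild type and 108 and 508 in the mutant, and nhr-251 had 8 and 22 reads in wild type and 90 and 5 in the mutant. Both overlapped between genotypes. Without rWQS029, the DESeq2 log2 fold change was 1.22 for nhr-8, 2.32 for nhr-74 and -3.01 for nhr-53, against -1.07, -0.85 and -0.98 without rWQS045. For nhr-62 and nhr-41 it was 1.66 and -1.36 without rWQS045, against 0.30 and 0.20 without rWQS029. For nhr-119 and nhr-265 it was 3.31 and 5.38 without rWQS042, against 1.25 and 1.31 without rWQS019. DESeq2 called none of these receptors in the fit to all 4 libraries.

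The receptors were not spread evenly over the genome. Chromosome V held 167 of the 269, which is 62.1% beside 25.1% of protein-coding genes, and chromosomes IV, I, X, II and III held 33, 23, 23, 15 and 8. Of 246 autosomal receptors 151 lay on the arms, outside the middle 50% of the chromosome, which is 61.4% beside 44.3% of autosomal protein-coding genes. The arms of autosomes are where H3K9 methylation is known to be richest. Autosomal arm receptors had a median log2 fold change of -0.24, with 80 of 121 below 0, beside a median of 0.13 for all protein-coding genes of the arms. Receptors of autosomal centres had a median of -0.19, with 50 of 75 below 0, beside 0.02. On chromosome V the medians were -0.32 on the arms and -0.25 in the centre, beside 0.08 and -0.07, and on chromosome X the median was -0.34 for 20 receptors, beside -0.14. In the centre of chromosome X 11 of 12 tested receptors were below 0, 9 of them without overlap between genotypes, with a median of -0.47 beside -0.12. These counts are 91.7% and 75% of the 12, beside 61.6% and 28.9% of all protein-coding genes of that region, and the region was singled out after its values were seen. The arms of chromosome X had a median of 0.01 over 8 receptors, beside -0.17. Chromosome I was above 0, with a median of 0.26 over 11 tested receptors and 8 of them above 0, beside a median of 0.10 and 60.7% above 0 for all its protein-coding genes, and its arms held 18 receptors of which 7 were tested.

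**Figure D5:**
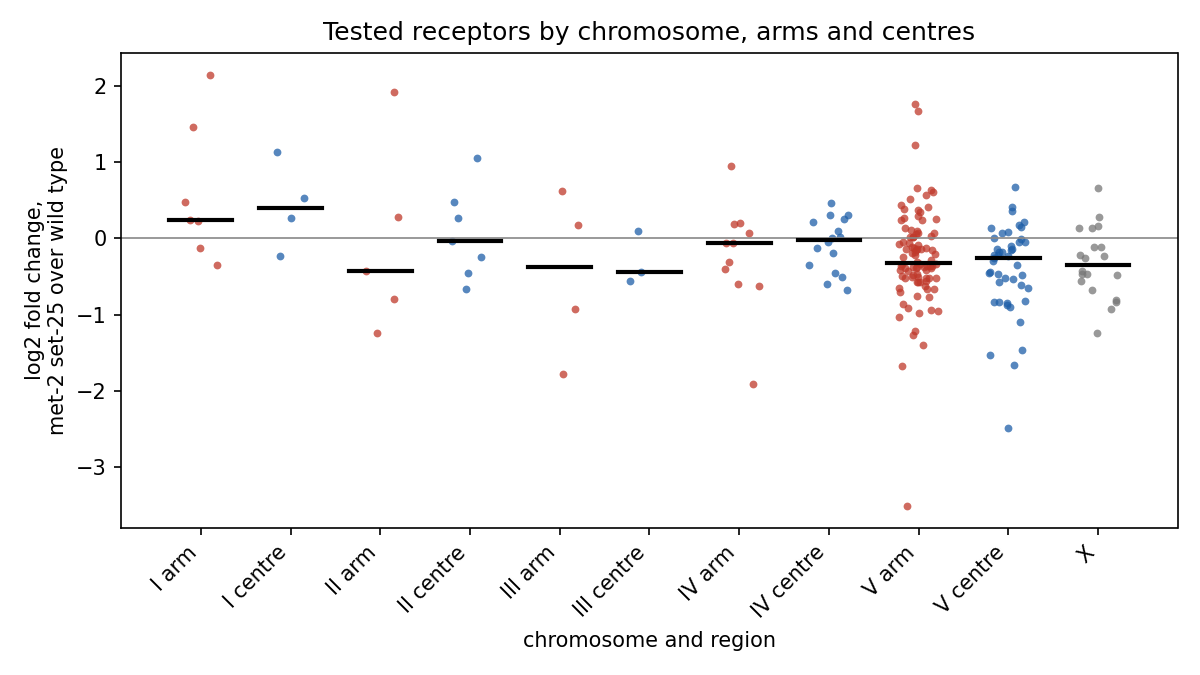
log2 fold change, met-2 set-25 over wild type, of each tested receptor by chromosome and region, with 1 point per receptor, arms in red, centres in blue, chromosome X in grey and a black bar at the median. Chromosome V holds most points, with medians of -0.32 on the arms and -0.25 in the centre.

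Many receptors stand side by side. Of the 269 receptors, 137 stood directly next to another receptor, in 44 runs of up to 9 genes, and 107 of the 137 were on chromosome V. Receptors next to another had a median log2 fold change of -0.34, with 85 below 0 and 29 above, and the others had a median of -0.12, with 60 below and 42 above. Of 72 adjacent pairs with both members tested, both members were below 0 in 46, both above in 8 and on opposite sides in 18, so that 75% shared a sign, beside 61.7% of all pairs among the tested receptors that have a receptor neighbour and 55.7% of all pairs of tested receptors. Close relatives in such runs may share reads, and some annotated spans overlap, so the members of a run are not independent measurements.

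The following runs were singled out after their values were seen. Of the 139 tested receptors of chromosome V, 72.7% were below 0, beside 52.4% of all tested protein-coding genes of the chromosome. Of the receptors 36.7% were lower without overlap, beside 22.8% of those genes, and 9 were higher without overlap, beside 19.4%. In the run of nhr-56, nhr-128, nhr-103, nhr-18, nhr-126, nhr-134 and nhr-96 (V 2219004 to 2235180) all 7 receptors were lower in both mutant libraries than in both wild type libraries. Their log2 fold changes lay between -0.66 and -0.33, at mean levels of 4.36 to 11.1 CPM, and none had an unadjusted p under 0.05. In the run from nhr-206 to nhr-136 (V 12092006 to 12109313) all 7 receptors were below 0, 3 of them without overlap. The run of nhr-123, nhr-98, nhr-203, nhr-202 and nhr-201 near the left end of chromosome V (V 451451 to 467509) had all 5 receptors above 0, between 0.06 and 0.66, 2 of them without overlap. The longest run, of 9 receptors from nhr-185 to nhr-124 (V 3844429 to 3886204), contains nhr-158, and 6 of its 7 tested members were below 0, at mean levels of up to 1.81 CPM.

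The receptors that were not tested were close to silent in all libraries. Of these 53, 5 had a count of 0 everywhere and 32 had fewer than 10 counts over the 4 libraries together. The highest summed count among them was 45 and the highest mean 0.253 CPM. A count of 0 allowed up to 0.1304, 0.0525, 0.0760 and 0.0672 CPM in rWQS019, rWQS042, rWQS029 and rWQS045, taken as 3 counts, for counting error only. The number of receptors with at least 1 count was 244 and 245 in wild type and 251 and 255 in the mutant. Of the tested receptors, 12 passed the filter in both wild type libraries but not in both mutant libraries and 8 the reverse, so receptors that pass the filter in a single genotype were found in both directions.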

How the data were processed

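The files deposited by the authors hold raw counts of reads for each gene, without normalization or pooling. Per the study's methods, libraries were made with a TruSeq RNA kit, and reads were aligned to ce10 by STAR with annotation WS235. The counting tool is HTSeq in the methods and featureCounts in the submitters' processing notes. Versions, whether strand was kept, and how reads shared by paralogs or overlapping genes were counted, are not given in the sources used here. Exons of 65 receptors overlap another gene, and near-identical receptors may share reads, so their values are uncertain. Columns left out numbered 0.

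All 269 receptors were matched by gene identifier to the Ensembl 115 annotation of WBcel235, the source of positions and exon lengths. edgeR 4.0.16 (R 4.3.3, glmQLFit and glmQLFTest, filterByExpr, TMM factors of 1.01, 1.00, 1.08 and 0.917 for rWQS019, rWQS042, rWQS029 and rWQS045) was fitted over all genes, with genotype as the only term, on 2 residual degrees of freedom. An SE is the size of the log2 fold change over the square root of F. DESeq2 1.42.0, limma voom (3.58.1), other scaling factors and filters, and each library left out in turn were alternatives. Where a genotype was left with 1 library, that library was assumed to vary like the other genotype. The fit was tested on simulated data.

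Separate cultures are not stated in the labels, and a p-value here covers the spread among these 4 libraries alone, which may be technical. Members, roles and lists were chosen with earlier results of these data known, so lists are described by counts and medians only. Named were both targeted genes, receptors called by edgeR or DESeq2, the 6 with the smallest unadjusted p under 0.05 in each direction, the 10 with the highest level per kb, the receptors with a listed role, and at most 4 genes per list by smallest p. Other genes named were picked for their part in a pathway or after their values were seen. dpy-7 and rol-6 stand in the molting and the epidermis list.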

Additional observations from a re-analysis of the deposited data

How the results depend on the processing

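No paired analysis was possible because the columns carry no replicate number. With 2 libraries per genotype, no adjusted edgeR p passed the threshold, and a miss shows no absence of change. The count of all genes called was 0 by edgeR and 548 by DESeq2, and with a library left out 0 to 252 by edgeR and 152 to 1424 by DESeq2. Receptors called higher were 1 by DESeq2 and 0 to 4 in its fits without a library, and receptors called lower were 2 and 0 to 7, whereas edgeR called 0 in each. At an unadjusted p under 0.05, receptors above 0 were 3, 5 by DESeq2 and, with a library left out, 3 to 7 by edgeR and 2 to 7 by DESeq2, and receptors below 0 were 8, 0 under a filter of 5 CPM and, with a library left out, 3 to 26 by edgeR and 1 to 25 by DESeq2. Receptors with a log2 fold change below 0 were 145 of 216 (67.1%), and 124 to 169 with a library left out (57.4% to 78.2%). A fit to genes of at least 5 CPM alone put 82 of 121 below 0 (67.8%). In the main fit 76 of the 121 with a mean of at least 5 CPM were below 0 (62.8%), beside 45.2% of all such genes. A mean of 1 CPM or more was found in 183 receptors, beside 227 at 0.1 CPM and 121 at 5 CPM. The median log2 fold change of -0.23 ran from -0.43 to -0.13 with a library left out, and upper-quartile factors gave -0.29 while moving all genes to -0.04.

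Of 37 named receptors with a fold change, 13 changed sign under some alternative. nhr-60 did so with upper-quartile factors (-0.00068). With a library left out, log2 fold changes ran from -0.33 to 0.068 for nhr-14, -0.21 to 0.84 for nhr-31, -1.36 to 0.20 for nhr-41, -0.17 to 0.31 for nhr-46, -0.15 to 0.37 for nhr-48, -0.88 to 1.18 for nhr-57, -1.08 to 0.68 for nhr-6, -0.25 to 0.36 for nhr-60, -0.70 to 0.10 for nhr-64, -0.22 to 0.092 for nhr-66, -1.07 to 1.22 for nhr-8, -0.036 to 0.39 for nhr-80 and -0.73 to 0.30 for nhr-85. The cause was not tested. Depth limits receptors under about 1 CPM, where a few reads set the fold change.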
